A study of Mus musculus with 4 samples.

Results

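Cyclins, the cyclin-dependent kinases (CDKs) that they activate, and the CDK inhibitor p27 were followed through 10 genes, chosen by name: Ccnd2, Ccnd3, Ccne1, Ccna2, Ccnb1, Ccnb2, Cdk4, Cdk6, Cdk1 and Cdkn1b. They are 10 of the 47643 genes in the count table and 10 of the 9608 genes tested, which had 10 counts or more in total, so none of them was lost to that filter. Messenger RNA was measured in CD4+ T cells sorted from the spleen. The mice (genotype Tg4 Nr4a3-Tocky Il10-EGFP) have most of their T cells bearing a single transgenic receptor, specific for a peptide of myelin basic protein (MBP). They also carry a fluorescent Timer protein driven by Nr4a3, a mark of recent receptor signalling, and an EGFP reporter of Il10. Every mouse had received 1 subcutaneous dose of [4Y]-MBP, a high-affinity form of that peptide, at 4 mg/kg, and cells were sorted 24 h later. Il10-EGFP+ cells (2 libraries) were compared with Il10-EGFP− cells (2 libraries), and both populations were Timer+. The 2 populations thus shared genotype, peptide, dose, time and the Timer+ gate, and were separated by the Il10 reporter. No untreated or Timer− library was analysed here, so no value describes the state of these genes before the peptide. The ages of the mice were not given in the sources used here.

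Cyclins are regulatory subunits that are made and destroyed at set stages of the cell cycle, and each switches on a partner kinase. D-type cyclins work with Cdk4 and Cdk6 in G1 to begin phosphorylation of the retinoblastoma protein, cyclin E with Cdk2 at entry into S phase, cyclin A with Cdk2 and then Cdk1 through S phase and G2, and B-type cyclins with Cdk1 at mitosis. In T cells, receptor signalling and IL-2 induce D-type cyclins, and p27, the product of Cdkn1b, restrains cyclin-CDK complexes in resting cells until it is degraded.

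The libraries held between 644679 and 730330 counts each, so that 1 count was worth 1.36 to 1.58 CPM, the count scaled to a common library size with TMM factors. Each read comes from the 3′ end of a transcript. Values are compared between populations and not ranked between genes. The counts of Il10, the gene whose reporter was sorted on, were 0 and 0 (Il10-EGFP−) and 29 and 41 (Il10-EGFP+). Nr4a3, whose promoter drives Timer, had 16 and 11 counts against 3 and 2, without overlap (log2 fold change -2.27, SE 0.72, adjusted p = 0.0569, edgeR), so a shared Timer+ gate does not mean equal Nr4a3 mRNA. The 10 CD4+ T cell markers listed were all measured, with a summed level of 3512 to 3788 CPM in Il10-EGFP− and 4109 to 4348 CPM in Il10-EGFP+ libraries. The summed level of B lineage markers was 138 and 185 CPM in Il10-EGFP− libraries and 582 and 615 CPM in Il10-EGFP+ libraries, with 6 of the 10 tested (of 12 listed) called higher and all 10 higher in CPM without overlap. Among them, the immunoglobulin light chain gene Igkc had 6 and 18 counts against 81 and 116, and Jchain, the joining chain of secreted antibody, had 0 and 0 against 15 and 16. The B cell receptor gene Cd79a had 2 and 0 counts against 0 and 0. The summed level of myeloid markers was 191 and 222 CPM against 534 and 319 CPM, with 2 of 9 tested (of 12 listed) higher and Cd14 and Adgre1 at 0 in every library. The summed level of CD8 T and NK cell markers was 50.2 and 90.5 CPM against 95.1 and 111 CPM, with 1 of 5 tested (of 8 listed) higher and Ncr1 at 0. These marker levels moved with the populations, and their part in the cell cycle results was not tested. In bulk libraries a change in the share of cells that hold a transcript and a change in the amount per cell cannot be told apart.

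Of the 10 genes, 3 were higher in Il10-EGFP+ cells and none was lower by the quasi-likelihood test of edgeR, Benjamini-Hochberg adjusted over all 9608 genes. The 3 were Ccne1, Ccna2 and Ccnb2, the cyclins of S phase entry, of S phase to G2 and of mitosis. Across all genes tested, 2.35% were called higher and 1.74% lower. At an unadjusted p under 0.05, the count was 4 higher and 1 lower (Ccnd2). Of all genes tested, 7.96% were higher and 7.49% lower at that p. At the adjusted threshold DESeq2 called 2 higher and 0 lower, beside 71 and 41 of all 9608 genes. Its counts at an unadjusted p under 0.05 were 3 and 1, beside 325 and 260. With a replicate block (the replicate number added to the model), edgeR called 3 higher and 1 lower, beside 313 and 247 of all genes. DESeq2 with that block called 0, beside 27 and 12. The labels do not say whether the number marks a shared mouse. The libraries of the 2 populations did not overlap for 8 of the 10 genes: 6 lay higher in both Il10-EGFP+ libraries, where 22.3% of all genes tested did, and 2 lay lower in both (Ccnd2 and Cdk4), where 22.3% also did. The median log2 fold change of the 10 genes was 0.33, against 0.00 over all genes tested. The summed level of the 10 genes was 3551 and 3636 CPM (Il10-EGFP−) against 3486 and 3558 CPM (Il10-EGFP+), so their total was close in both populations while its make-up differed. Ccnd2 alone gave 57.3% and 60.3% of the counts in that total against 46.7% and 47.9%, so the total mainly follows this gene.

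**Figure D1:**
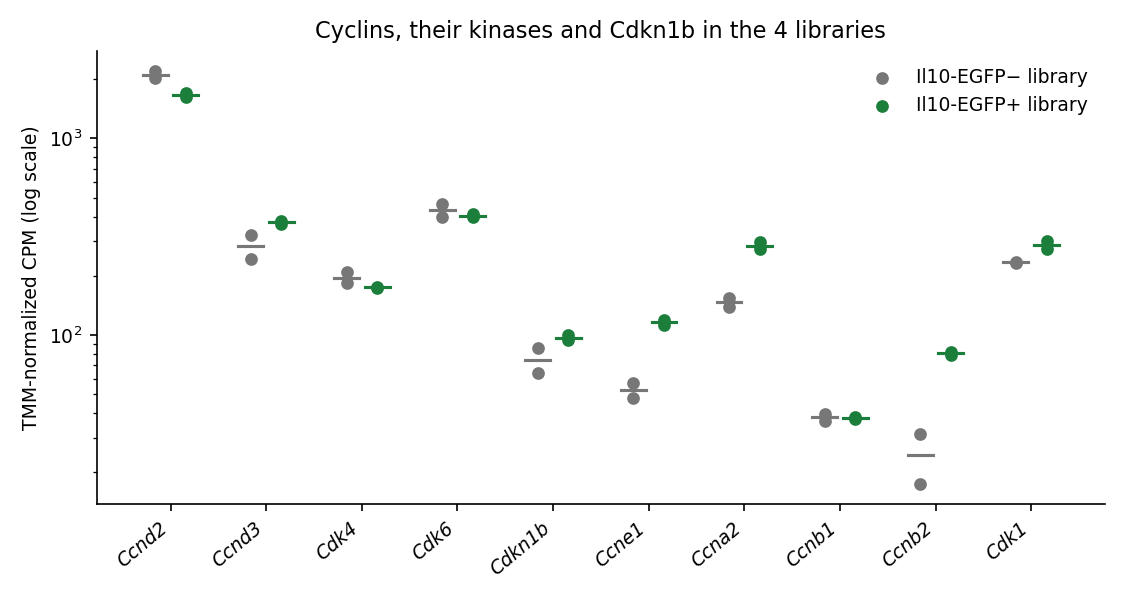
Level of each of the 10 genes in each library, in TMM-scaled CPM on a log axis; points are libraries (grey Il10-EGFP−, green Il10-EGFP+) and horizontal bars are means of 2 libraries. Ccne1, Ccna2 and Ccnb2 lie well apart between the populations, for example Ccna2 at 139 and 155 CPM against 274 and 296 CPM, while those of Ccnb1 and Cdk6 overlap.

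The D-type cyclins, which act first in the cycle, were not called. Ccnd2 (cyclin D2, induced in T cells by receptor and cytokine signals; ENSMUSG00000000184, chr6:127125162-127152193 on the minus strand of GRCm38) had 1499 and 1503 counts in Il10-EGFP− cells and 1027 and 1180 counts in Il10-EGFP+ cells. Both Il10-EGFP+ libraries lay below both Il10-EGFP− libraries. The means were 2114 ± 112 CPM and 1665 ± 53.1 CPM (SD, n = 2), a log2 fold change of -0.34 (SE 0.12) that did not pass the test (adjusted p = 0.0861, edgeR quasi-likelihood). With limma voom the same difference passed (adjusted p = 0.0153). With a replicate block it passed in edgeR (adjusted p = 0.00682) and not in DESeq2 (adjusted p = 0.197). The call of Ccnd2 thus depends on the test used. Its 95% interval, like those below not adjusted for the number of genes, ran from -0.58 to -0.11.

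Ccnd3, cyclin D3, which is needed when thymocytes expand, lies at chr17:47505051-47599691 on the plus strand (ENSMUSG00000034165). The Il10-EGFP− libraries held 237 and 167 counts of it and the Il10-EGFP+ libraries 240 and 255. The mean was 283 ± 55.2 CPM against 374 ± 8.77 CPM, and the log2 fold change of 0.40 (SE 0.16, interval 0.09 to 0.71) did not pass the test (adjusted p = 0.149, edgeR). The 2 Il10-EGFP− libraries were further apart from each other than the 2 Il10-EGFP+ libraries, and the log2 fold change ran from 0.22 to 0.62 when 1 library was left out. The 3′ end of Ccnd3 overlaps exons of Bysl, a ribosome assembly gene on the opposite strand, by 361 bases. Bysl had 80 and 105 counts against 48 and 40 and was called lower (log2 fold change -0.97, SE 0.24, adjusted p = 0.0086, edgeR). Whether counting used the strand was not given in the sources used here, and without it reads of the shared stretch cannot be told apart.

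The D-type cyclin mRNAs therefore lay on opposite sides of no change, and their ratio was compared inside each library, where the scaling between libraries has no effect. Ccnd2 made up 86.3% (Clopper-Pearson 95% interval 84.6 to 87.9) and 90.0% (88.5 to 91.4) of the counts of Ccnd2 and Ccnd3 in the Il10-EGFP− libraries. In the Il10-EGFP+ libraries it made up 81.1% (78.8 to 83.2) and 82.2% (80.2 to 84.2). The share was lower in both Il10-EGFP+ libraries, with means of 88.2 ± 2.58% and 81.6 ± 0.829%. The intervals cover counting error only, and with 2 libraries against 2 an exact two-sided permutation test cannot give a p below 0.333, which is the value it gave here.

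The partner kinases of the D-type cyclins were not called. Cdk4 (ENSMUSG00000006728, chr10:127063534-127067920, plus strand) had 183 and 209 CPM in Il10-EGFP− and 174 and 175 CPM in Il10-EGFP+ cells. Its log2 fold change was -0.17 (SE 0.18), with an interval from -0.52 to 0.19, and it ran from -0.26 without Il10-EGFP− replicate 1 to -0.07 without replicate 2 of that population. Cdk4 shares up to 641 exonic bases with Tspan31 on the opposite strand, which had 7 and 1 counts against 2 and 7 and was not called. Cdk6 (ENSMUSG00000040274, chr5:3341485-3531008, plus strand) had 462 and 400 CPM against 399 and 411 CPM, and the populations overlapped. Its log2 fold change was -0.09 (SE 0.14), with an interval from -0.38 to 0.20. Adjusted p-values were 0.749 for Cdk4 and 0.864 for Cdk6 in edgeR's test. Changes inside these intervals remain possible with 2 libraries per population, and no detection limit was calculated. The share of Cdk6 in the counts of both kinases was 71.6% and 65.7% (Il10-EGFP−) against 69.6% and 70.2% (Il10-EGFP+), which overlapped (exact two-sided permutation p = 1).

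**Figure D2:**
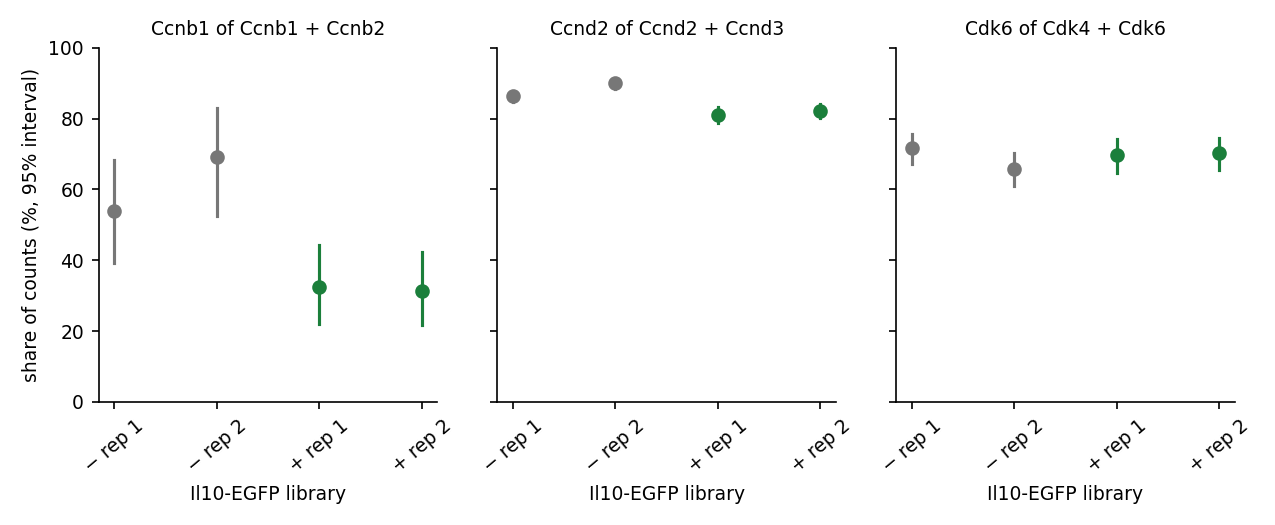
Share of 1 gene in the summed counts of a pair, in percent, for each of the 4 libraries with Clopper-Pearson 95% intervals as bars. Ccnb1 in the B-type cyclin pair lay at 54.0% and 69.2% in Il10-EGFP− (grey) and at 32.4% and 31.3% in Il10-EGFP+ libraries (green), the Ccnd2 share differed by -6.53 percentage points on average, and the Cdk6 shares overlapped.

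Cdkn1b, which encodes the p27 inhibitor of cyclin E-Cdk2 and cyclin A-Cdk2 (ENSMUSG00000003031, chr6:134920401-134925513, plus strand), had 47 and 59 counts in Il10-EGFP− cells and 63 and 65 counts in Il10-EGFP+ cells. That is 74.9 ± 15.8 CPM against 96.8 ± 4.28 CPM. The populations did not overlap, but the log2 fold change of 0.37 (SE 0.24, interval -0.11 to 0.86) did not pass the test (adjusted p = 0.504, edgeR). Leaving out 1 library at a time gave 0.17 to 0.60. Much of the control of p27 in T cells acts on the protein, which these libraries do not measure.

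Ccne1, cyclin E1, the activator of Cdk2 at entry into S phase, was 2.23-fold higher in Il10-EGFP+ cells. The gene (ENSMUSG00000002068) lies at chr7:38097984-38107534 on the minus strand. It had 35 and 39 counts in Il10-EGFP− cells and 71 and 83 counts in Il10-EGFP+ cells, with no overlap. The means were 52.2 ± 6.64 CPM and 116 ± 5.12 CPM, a log2 fold change of 1.15 (SE 0.25, interval 0.66 to 1.65, adjusted p = 0.00192, edgeR). The call held without each library in turn, and DESeq2 gave a like log2 fold change of 1.16 with an adjusted p of 0.0790, which missed the threshold. Its kinase Cdk2 and the related cyclin gene Ccne2 were not called, with log2 fold changes of -0.05 (interval -0.52 to 0.42, adjusted p = 0.966) and 0.29 (adjusted p = 0.561) in edgeR's test.

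Ccna2, cyclin A2, which acts from S phase into G2, was 1.95-fold higher in Il10-EGFP+ cells. The gene (ENSMUSG00000027715) lies at chr3:36564865-36572150 on the minus strand. It had 102 and 106 counts in Il10-EGFP− cells and 173 and 205 counts in Il10-EGFP+ cells. The gap between populations was many times the spread within each: 147 ± 11.5 CPM against 285 ± 15.3 CPM, a log2 fold change of 0.96 (SE 0.17, interval 0.61 to 1.31, adjusted p = 0.000196, edgeR). Leaving out each library gave 0.88 to 1.04. Ccna2 shares up to 428 exonic bases with Exosc9, an RNA exosome gene on the opposite strand, which had 78 and 47 counts against 39 and 52 and was not called (log2 fold change -0.35, adjusted p = 0.571, edgeR). As a share of all counts of the 10 genes, a quantity calculated after the values were seen, Ccna2 made up 3.90% and 4.25% (Il10-EGFP−) against 7.86% and 8.31% (Il10-EGFP+). The same share for Ccnd2 was 57.3% and 60.3% against 46.7% and 47.9%.

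Of the B-type cyclins, 1 was called higher. Ccnb2, cyclin B2, a partner of Cdk1 in mitosis found mainly at the Golgi (ENSMUSG00000032218, chr9:70407692-70421547, minus strand), had 23 and 12 counts in Il10-EGFP− cells and 50 and 57 counts in Il10-EGFP+ cells. The means were 24.4 ± 9.69 CPM and 80.7 ± 2.13 CPM, a 3.27-fold difference (log2 fold change 1.71, SE 0.32, interval 1.06 to 2.36, adjusted p = 0.000326, edgeR). Its log2 fold change ranged from 1.37 without Il10-EGFP− replicate 2 to 2.19 without replicate 1 of that population, and the call held in each of the 4 fits.

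Ccnb1, cyclin B1, the partner that carries Cdk1 into the nucleus at the start of mitosis (ENSMUSG00000041431, chr13:100778650-100786570, minus strand), had 27 and 27 counts in Il10-EGFP− cells and 24 and 26 counts in Il10-EGFP+ cells. At 38.0 ± 1.94 CPM and 37.8 ± 0.367 CPM, the populations overlapped, and the log2 fold change was -0.01 (SE 0.34, interval -0.70 to 0.68, adjusted p = 0.995, edgeR). With so few counts the interval is wide and still contains changes of more than 1.5-fold in either direction, but it ends below the lower bound of Ccnb2. Ccnb1 made up 54.0% (39.3 to 68.2) and 69.2% (52.4 to 83.0) of the B-type cyclin counts in Il10-EGFP− libraries and 32.4% (22.0 to 44.3) and 31.3% (21.6 to 42.4) in Il10-EGFP+ libraries. The mean share of Il10-EGFP+ minus that of Il10-EGFP− cells was -29.7 percentage points, without overlap (exact two-sided permutation p = 0.333, the smallest that 2 against 2 libraries allow).

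Reads of Ccnb1 were at more risk of being shared with copies than those of the other 9 genes. Of the 984 distinct 50-base sequences in the last 500 bases of its coding transcripts, 332 also occur in other annotated genes, chiefly the processed pseudogenes Gm12856 and Ccnb1-ps. These 2 pseudogenes had 0 counts in every library, and how reads with several matches were treated was not given in the sources used here. The Ccnb1 level is therefore uncertain. For Ccnb2, Ccna2, Ccne1, Ccnd2, Cdk1 and Cdkn1b, 0 such sequences were shared. The numbers were 143 of 2379 for Ccnd3, 16 of 1256 for Cdk4 and 38 of 1495 for Cdk6.

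Cdk1, the kinase that both B-type cyclins and cyclin A2 activate (ENSMUSG00000019942, chr10:69335146-69352938, minus strand), had 232 and 236 CPM in Il10-EGFP− cells and 301 and 273 CPM in Il10-EGFP+ cells. The higher pair did not overlap the lower, but the log2 fold change of 0.29 (SE 0.16, interval -0.03 to 0.61) did not pass the test (adjusted p = 0.399, edgeR). The upper end of that interval is below the estimates for Ccna2, Ccne1 and Ccnb2, and whether Cdk1 differed from them was not tested.

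**Figure D3:**
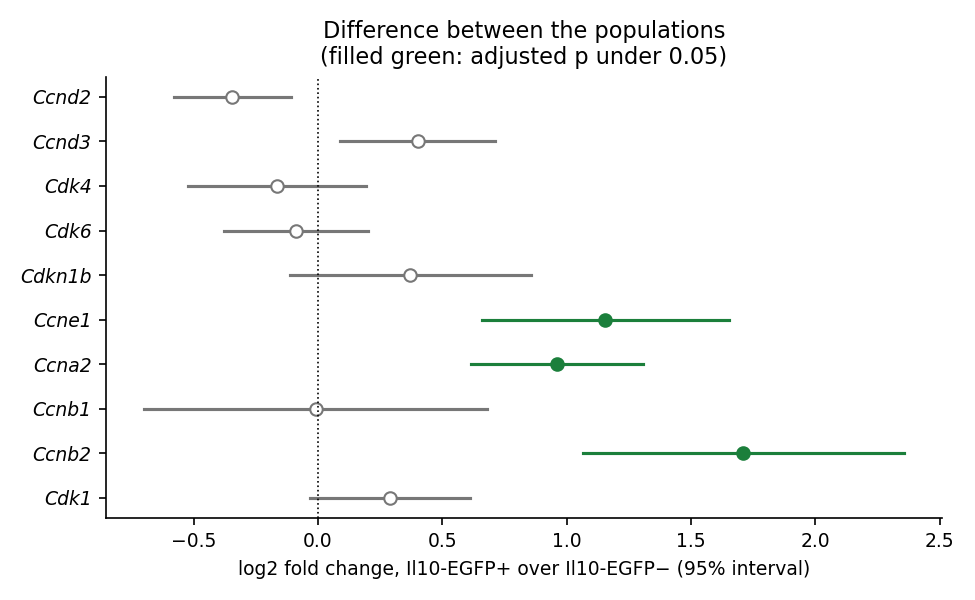
Log2 fold change of each of the 10 genes (Il10-EGFP+ over Il10-EGFP−) on the horizontal axis, with 95% intervals from the edgeR fit that are not adjusted for the number of genes; filled points passed the adjusted threshold. Ccnb2, Ccne1 and Ccna2 are filled and lie at 1.71, 1.15 and 0.96, and the other 7 lie between -0.34 and 0.40.

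On the deposited rlog scale, a log2 scale that draws low counts toward the mean of all libraries, the same 3 genes passed limma's test, with differences of 0.55 for Ccna2, 0.44 for Ccnb2 and 0.42 for Ccne1 (adjusted p = 0.0142, 0.0242 and 0.0211). Ccnd2 had an rlog difference of -0.29 (adjusted p = 0.0594, limma), Ccnd3 of 0.28 and Cdk1 of 0.18, and none of these 3 passed. The order of Ccna2 and Ccnb2 by size is the reverse of that in the edgeR fit, where the low counts of Ccnb2 are not drawn in.

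The promoters of the mitotic group are shown because Ccnb2 was called higher in these libraries while Ccnb1 and Cdk1, which act with it, were not. In dividing cells such genes are known to be controlled through CHR elements (cell cycle genes homology region, TTTGAA), which bind MuvB complexes, and CCAAT boxes, which bind NF-Y, while S phase genes are often controlled through E2F sites. The sequences are the 250 bases before the RefSeq transcription start on GRCm38.p6, 5′ to 3′ on the strand of the gene, at chr9:70421555-70421804, chr13:100786487-100786736 and chr10:69352913-69353162, all on the minus strand. Capitals mark CHR letters, CCAAT boxes (ATTGG where they lie on the opposite strand) and, in Cdk1, the E2F letters TTTCGCGC.
Ccnb2: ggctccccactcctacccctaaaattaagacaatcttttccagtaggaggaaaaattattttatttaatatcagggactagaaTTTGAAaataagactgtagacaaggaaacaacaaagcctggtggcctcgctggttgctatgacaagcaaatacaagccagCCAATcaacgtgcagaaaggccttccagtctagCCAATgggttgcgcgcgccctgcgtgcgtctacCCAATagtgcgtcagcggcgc
Ccnb1: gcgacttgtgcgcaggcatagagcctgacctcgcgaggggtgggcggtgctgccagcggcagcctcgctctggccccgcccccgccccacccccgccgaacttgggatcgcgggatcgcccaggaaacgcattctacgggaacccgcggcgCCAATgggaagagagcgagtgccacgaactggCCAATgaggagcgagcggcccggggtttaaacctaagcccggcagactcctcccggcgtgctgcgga
Cdk1: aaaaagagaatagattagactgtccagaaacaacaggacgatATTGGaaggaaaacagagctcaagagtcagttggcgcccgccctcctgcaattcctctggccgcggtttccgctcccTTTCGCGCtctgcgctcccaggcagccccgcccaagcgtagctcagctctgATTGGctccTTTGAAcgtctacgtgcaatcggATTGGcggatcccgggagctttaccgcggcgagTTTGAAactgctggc

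With the first transcribed base as 1 and the base before it as -1, the Ccnb2 promoter held 3 CCAAT boxes, whose leftmost bases lie at -87, -54 and -21, and CHR letters at -167 and, past the start, at 5. The Ccnb1 promoter held 2 CCAAT boxes at -99 and -67 and no TTTGAA in this window. Only TTTGAA was searched for as CHR letters, so CHR elements with other letters would have been missed in every window. The Cdk1 promoter held CHR letters at -71 and -15, opposite-strand CCAAT boxes at -208, -80 and -48, and E2F letters at -131. RefSeq windows of 300 bases (250 before and 50 after the start) were matched for 8 of the 10 genes, and Ccna2 and Ccnd2 were without one. Counting both strands, 17.9% of all 32851 windows held TTTGAA, 37.4% held CCAAT and 2.26% held at least 1 of the 4 E2F spellings searched (TTTCCCGC, TTTCGCGC, TTTGCCGC and TTTGGCGC). CCAAT was also found in the window of Cdkn1b and in the Ccnd3 window whose upstream part lies at chr17:47593217-47593466. None of the 3 motifs was found in the other Ccnd3 window (upstream part at chr17:47504801-47505050) or in those of Ccne1, Cdk4 and Cdk6. A match is a description of letters, and its absence from a window says nothing about binding.

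**Figure D4:**
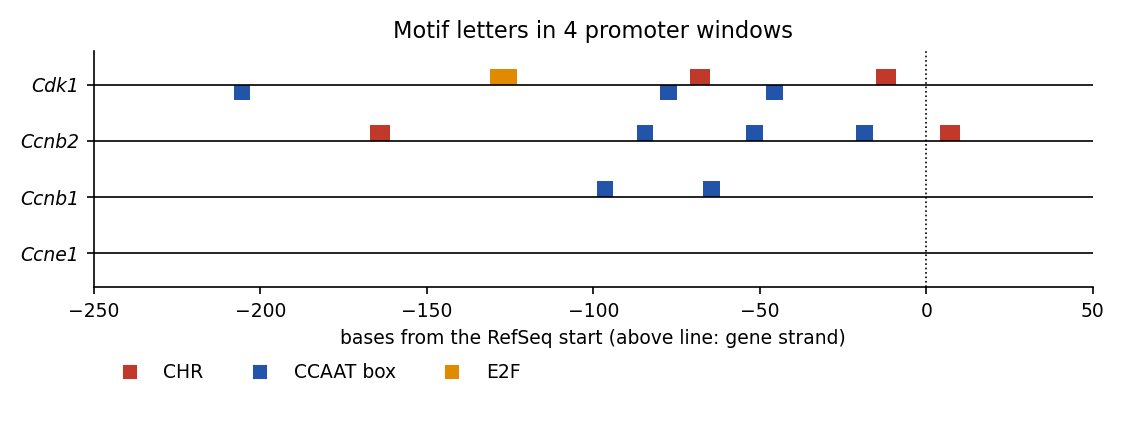
Positions of CHR, CCAAT and E2F letters from 250 bases before to 50 bases after the RefSeq transcription start, in bases from the start, for 4 of the genes; boxes above a line are on the strand of the gene and boxes below it on the opposite strand. Ccnb2 and Cdk1 carry both CHR and CCAAT letters, Ccnb1 carries CCAAT boxes at -99 and -67, and the row of Ccne1 is empty.

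Around these 10 genes, 91 other regulators of cyclins and CDKs were listed by role, of which 80 were tested. In edgeR's test 8 of the 80 were higher in Il10-EGFP+ cells and 0 were lower, and at an unadjusted p under 0.05 the counts were 19 and 5. Of all genes tested, 2.35% and 1.74% were called higher and lower, and 7.96% and 7.49% at the unadjusted p, so the 5 lower genes are near the background share. The count fell to 3 without Il10-EGFP− replicate 1 and to 5 without Il10-EGFP+ replicate 1, and DESeq2 called 3. The median log2 fold change of the 80 was 0.09. Of the 11 not tested, Ccna1, Ccnb3, Cdk18, Cdkn1c, Cdkn2a and Cdkn2b had 0 counts in every library, which allows up to 4.07 to 4.75 CPM (3 counts). Ccnd1, the third D-type cyclin gene, had 0 and 1 counts against 5 and 1.

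Among 13 other cyclins tested (of 16), 1 was higher. Ccnf, which encodes cyclin F, a substrate receptor of an SCF ubiquitin ligase with no CDK partner, went from 23.2 ± 1.80 to 75.8 ± 7.16 CPM (log2 fold change 1.70, SE 0.33, adjusted p = 0.000445, edgeR). Of those not called, Ccnl1 and Ccnt1, which act in RNA processing and transcription, and Ccne2 had log2 fold changes of -0.04, 0.28 and 0.29. None of 12 other CDKs tested (of 14) was called, with a median log2 fold change of -0.17. Both Il10-EGFP+ libraries lay lower for 5 of the 12 and higher for 0, beside 22.3% of all genes tested in each direction. Cdk11b and Cdk12, which act in transcription, had log2 fold changes of 0.09 and -0.23 (adjusted p = 0.887 and 0.771, edgeR), beside Cdk2 above.

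Among CDK inhibitors other than Cdkn1b, 3 of 6 were tested. Cdkn2c, the Cdk4 and Cdk6 inhibitor p18, was higher, from 12.8 ± 4.63 to 36.3 ± 0.267 CPM (log2 fold change 1.5, adjusted p = 0.0446, edgeR). The related p19 gene Cdkn2d (0.77, adjusted p = 0.0967) and the p21 gene Cdkn1a (-0.30, adjusted p = 0.898) were not called. Of 7 CDK-binding subunits, phosphatases and inhibitory kinases tested (of 9), 0 were called. Among them, Cks1b, a CDK-binding subunit, Cdc25a, a CDK-activating phosphatase, and Pkmyt1, a kinase that inhibits Cdk1, had log2 fold changes of 0.24, -0.18 and 0.15.

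The machinery that destroys cyclins and their inhibitors was measured for 22 of 22 listed genes, and 3 were higher. Ube2c, the ubiquitin-conjugating enzyme of the anaphase-promoting complex (APC/C) that targets cyclins A and B, went from 45.2 ± 18.6 to 122 ± 23 CPM (log2 fold change 1.41, adjusted p = 0.00031, edgeR). Anapc13, an APC/C subunit, went from 36.4 ± 6.10 to 72.8 ± 13.3 CPM (1.00, adjusted p = 0.0432). Fbxo5, the Emi1 inhibitor of APC/C, went from 63.9 ± 23.2 to 146 ± 9.54 CPM (1.20, adjusted p = 0.000507), so the calls included an inhibitor of this machinery beside 2 of its parts. Of those not called, the APC/C subunit Anapc5, the SCF ligase adapter Skp1a and the spindle checkpoint gene Mad2l1 had log2 fold changes of 0.38, -0.41 and 0.02.

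Of 19 genes of RB, E2F and MuvB transcription tested (of 20), 2 were higher. E2f2, an activating E2F, went from 58.1 ± 16.9 to 118 ± 18.9 CPM (log2 fold change 1.03, adjusted p = 0.00714, edgeR), and E2f8, a repressive E2F, from 21.9 ± 6.09 to 53.5 ± 18.5 CPM (1.28, adjusted p = 0.0338). Rbbp4, a histone-binding subunit of MuvB, E2f1 and E2f4 were not called, with log2 fold changes of 0.26, -0.26 and -0.01. Of 4 transcription factors listed as regulators of Cdkn1b or of T cell quiescence, Klf2 was higher, from 56.9 ± 4.06 to 121 ± 40 CPM (1.07, adjusted p = 0.00531). Foxo1, Foxo3 and Foxo4 were not called, with log2 fold changes of -0.07, -0.61 and 0.62.

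**Figure D5:**
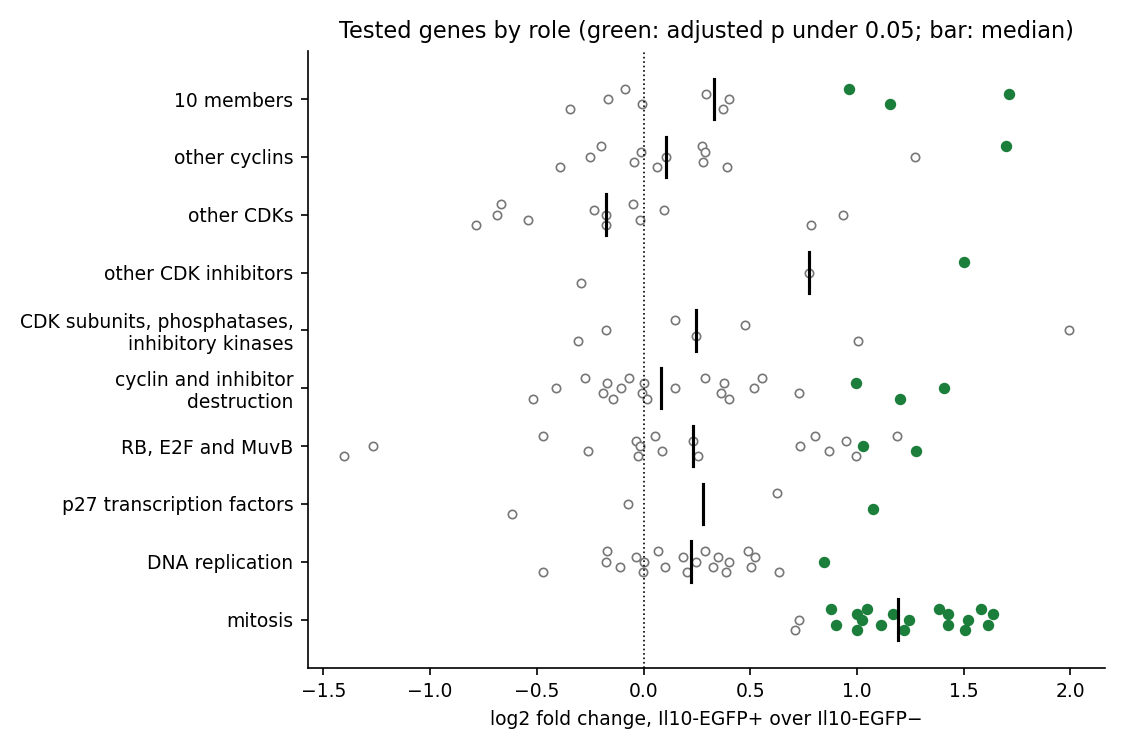
Log2 fold change (Il10-EGFP+ over Il10-EGFP−) of each tested gene in each role list on a common axis; each circle is a gene, filled green circles passed the adjusted threshold and the bar of each list is its median. The mitosis list has a median of 1.19 and stands to the right of the replication list at 0.22 and of the 10 genes at 0.33.

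The 10 genes were set beside lists of DNA replication and mitosis genes. Of 22 replication genes 1 was higher, Rrm2, a subunit of ribonucleotide reductase (log2 fold change 0.85, adjusted p = 0.000466, edgeR), with a median of 0.22. Mcm7 and Mcm5 of the replicative helicase and Lig1, the ligase of the lagging strand, had log2 fold changes of -0.18, 0.10 and 0.39 and were not called. Of 20 mitosis genes 18 were higher, with a median of 1.19, among them Mki67, a marker of dividing cells (1.61, adjusted p = 1.0e-09), Top2a, which untangles chromosomes (0.88, adjusted p = 5.3e-07), and Birc5, a chromosomal passenger protein (1.00, adjusted p = 1.0e-06). The log2 fold changes of Ccna2, Ccne1 and Ccnb2 lay within the range of the mitosis list (0.71 to 1.64) or, for Ccnb2, above it, and those of Cdk1 and Ccnb1 lay below that range. The mitosis and replication lists were chosen with earlier results known and are given here as descriptions.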

How the data were processed

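The 4 libraries were made from sorted CD4+ T cells with a QuantSeq 3′ kit, 2 per population. The authors deposited read counts per Ensembl gene, made with the BlueBee pipeline (STAR 2.5.2a and HTSeq 0.6.0 in the submitters' processing notes) on GRCm38, and DESeq2 rlog values on a log2 scale. Per the labels, unique molecular identifiers served to find copied reads and to correct for amplification. The paper calls the counts read counts. Whether copied reads were collapsed before counting, and the strand option, were not given in the sources used here. An unstranded count would merge overlapping genes. The study left out a replicate pair as an outlier before deposit; it was not analysed here. The design text calls the samples biological replicate mice.

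Genes whose 4 counts summed to 10 or more were fitted in edgeR 4.0.16 (glmQLFit and glmQLFTest with the legacy fit, TMM) in R 4.3.3, with Benjamini-Hochberg adjustment over 9608 genes and a threshold of 0.05. Each standard error is the size of the log2 fold change over the square root of F. Alternatives used limma 3.58.1 and DESeq2 1.42.0. The scripts were tested on simulated data. Symbols were lacking for 419 identifiers, and positions came from GENCODE M21. Named genes were all 10 members, every other regulator called, and up to 3 uncalled genes per role list with the highest mean CPM. In the replication and mitosis lists, up to 3 genes each with the highest mean CPM were named, called or not. Rrm2 was named there as the 1 replication gene called. The members and lists were chosen with earlier results of these data known.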

Additional observations from a re-analysis of the deposited data

How the results depend on the processing

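Counts of calls are totals of each fit. Against 393 genes by edgeR, DESeq2 called 112, limma on the deposited rlog values 197, a threshold of 0.01 gave 177, and fits with 1 library left out 201 to 264. Against 8 other regulators, DESeq2 and limma on rlog values called 3 each, the 0.01 threshold gave 5, and fits with 1 library left out 3 to 6. The 3 members stayed called in each of the 4 fits with 1 library left out; DESeq2 called 2 and limma voom 4. The replicate numbers were not shown to pair libraries (correlation of same-numbered deviations 0.035 over 4965 genes). With a replicate block, edgeR called 560 genes, 4 members (Ccnd2 also, adjusted p = 0.00682) and DESeq2 called 39 genes, 0 members (adjusted p = 0.0817 for Ccna2, 0.166 for Ccnb2 and 0.321 for Ccne1; 3 higher and 1 lower at an unadjusted p under 0.05) and 0 regulators (5 higher and 0 lower). Directions turned only for values near 0: the log2 fold change of Ccnb1 was 0.00086 with filterByExpr and -0.061 to 0.045 with 1 library left out, that of Cdk6 ran from -0.18 to 0.020 with 1 library left out, and the Cdk6 share difference ran from -1.67 to 4.20 percentage points with 1 library left out. The cause was not tested, beyond the fewer libraries. With 1 library left in a population, that library is assumed to vary like those of the other. Low counts limit Ccnb1 and Ccnb2 most. With 2 libraries per population, edgeR draws the variance of each gene strongly toward a value shared across genes (median prior degrees of freedom 52.2). Its standard errors, intervals and p-values therefore do not rest on the spread of that gene alone. None of the p-values covers variation beyond these samples.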
